A study of Mus musculus with 4 samples.

Results

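The genes described here are 53 regulators of RNA splicing and related RNA-binding proteins, chosen by symbol from a list, out of 52636 genes counted in RNA-seq of sorted mouse kidney cells. They comprise 12 heterogeneous nuclear ribonucleoproteins (hnRNPs), 11 serine/arginine-rich (SR) and SR-like factors, the helicase gene *Dhx9*, 12 broadly expressed regulators, 15 regulators enriched in neurons and the 2 epithelial regulators *Esrp1* and *Esrp2*. All 53 were found in the count files. The study compared 2 control libraries (*Eya1*CreER/+ with the R26-tdTomato reporter) with 2 *Eya1*cKO libraries (*Eya1*CreER/+;*Eya1* fl/fl with R26-tdTomato), to find genes that depend on *Eya1*, a transcriptional coactivator with phosphatase activity, in nephron progenitors. Both genotypes carried the *Eya1*CreER knock-in allele and the reporter, and both were given tamoxifen, and kidneys were harvested between embryonic days 12 and 13, 48 h after the first dose, on a mixed C57BL/6J and 129/Sv background. Each library was made from 5000 tdTomato+ cells. CreER was expressed from the *Eya1* locus, so the sort was for cells of the dissected kidney in which it had acted under tamoxifen, with their descendants, and was not limited to 1 cell type. The libraries of a genotype were separate portions of combined cell suspensions sorted at the same time, so the P-values measure the spread between such portions and not between embryos. Bulk libraries cannot separate fewer cells of a type from less RNA per cell.

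Between 17457452 and 37999342 reads per library fell on genes, fewer in the *Eya1*cKO than in the control libraries, and 3 reads corresponded to 0.0801 to 0.171 CPM. CPM are reads scaled to a common library total, with TMM factors that adjust the totals for differences in composition. *Eya1* had 189 and 171 CPM in the controls against 16.7 and 12.5 CPM in *Eya1*cKO (log2 fold change -3.60 ± 0.18 (SE, n = 2 per group), adjusted P = 0.000195). All 7 nephron progenitor markers, among them *Six2*, were lower in *Eya1*cKO, with summed levels of 1736 and 1745 CPM in the controls against 391 and 351 CPM in *Eya1*cKO. Higher levels were found for 11 of 15 neuronal and sympathoadrenal markers (summed 33.0 and 37.1 CPM against 638 and 683 CPM), 6 of 6 adrenal cortex markers, 5 of 5 podocyte markers and 5 of 5 endothelial markers. Of 5 stromal markers 3 were higher and 1 lower, and of 7 blood markers 2 could be tested and did not pass. Reads on no gene took 12.9% and 13.9% of the reads recorded in the controls and 20.9% and 22.7% in *Eya1*cKO.

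Splicing removes introns from precursor RNA, and the choice of exons is set by proteins bound near the splice sites. SR proteins mostly bind exons and promote their inclusion, whereas hnRNPs often bind silencer sequences and oppose it, so that the balance of both groups shapes the transcripts of nearly every gene. Tissue-restricted factors of the RBFOX, NOVA, CELF, ELAVL and SRRM families, and the ESRP proteins of epithelia, add cell type-specific programmes. Many of these genes also control their own RNA through exons that carry a premature stop codon. In neurons PTBP1 gives way to PTBP2, and SRRM4 promotes the very short exons of neuronal transcripts. Neuronal genes of this kind are kept silent in other tissues by REST, which binds an element called RE1.

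The sequences just before the transcription start show how the promoters of the general factors and of the neuron-enriched genes differ in composition. Of the 53 genes, 45 matched RefSeq promoters (GRCm38 assembly), 80 promoters in all, and the 250 bases upstream of each start were read. The median GC content was 69.2% over 17 hnRNP promoters, 66% over 14 SR promoters and 56.8% over 32 promoters of neuron-enriched genes, against 52.4% over all 32851 mouse promoters. The median number of CpG dinucleotides was 28, 28, 10.5 and 6. Promoters of 4 genes are printed as examples chosen after their values were seen, namely *Srrm4* and *Elavl3*, which were higher in *Eya1*cKO, *Hnrnpa0*, the hnRNP gene of highest level per exon length, which was lower, and *Srsf5*, the SR gene that was higher. Capitals mark, on either strand, the CCAAT box (CCAAT), the GC box (GGGCGG), the TATA box (TATAAA) and letters from the left (CAGCACC) and right (GGACAG) parts of RE1. Each is written 5′ to 3′ and ends at the base before the start site.
*Srrm4*, chr5:116591818-116592067, minus strand: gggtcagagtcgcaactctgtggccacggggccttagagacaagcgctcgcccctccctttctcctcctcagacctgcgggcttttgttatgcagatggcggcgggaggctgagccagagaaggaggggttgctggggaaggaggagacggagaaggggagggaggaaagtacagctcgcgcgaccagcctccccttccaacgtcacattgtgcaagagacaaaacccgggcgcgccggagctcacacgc
*Elavl3*, chr9:22052024-22052273, minus strand: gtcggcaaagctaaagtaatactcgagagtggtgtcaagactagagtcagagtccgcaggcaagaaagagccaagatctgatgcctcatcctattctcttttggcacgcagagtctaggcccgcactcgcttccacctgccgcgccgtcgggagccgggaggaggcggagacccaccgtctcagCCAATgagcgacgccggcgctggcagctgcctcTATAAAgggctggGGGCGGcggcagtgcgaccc
*Hnrnpa0*, chr13:58128557-58128806, minus strand: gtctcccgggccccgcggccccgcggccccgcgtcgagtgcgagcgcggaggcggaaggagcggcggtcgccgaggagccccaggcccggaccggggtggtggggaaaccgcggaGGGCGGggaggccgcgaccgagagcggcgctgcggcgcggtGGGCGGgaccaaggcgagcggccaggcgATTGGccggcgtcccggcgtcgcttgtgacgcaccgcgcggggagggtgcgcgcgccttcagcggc
*Srsf5*, chr12:80945249-80945498, plus strand: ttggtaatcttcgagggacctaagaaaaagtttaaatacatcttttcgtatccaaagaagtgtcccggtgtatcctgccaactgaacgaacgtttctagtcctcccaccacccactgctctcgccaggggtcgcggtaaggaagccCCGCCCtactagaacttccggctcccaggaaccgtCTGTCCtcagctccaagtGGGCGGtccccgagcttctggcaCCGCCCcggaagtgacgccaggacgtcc

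The *Srrm4* window held none of the motifs, the *Elavl3* window held a CCAAT box, a TATA box and a GC box, the *Hnrnpa0* window held GC boxes and a CCAAT box, and the *Srsf5* window held 3 GC boxes and the right RE1 letters. GC boxes were in 61.3% of the 80 promoters, against 32.7% of all promoters, and CCAAT boxes in 47.5% against 33.8%. Overlapping windows of the same gene were counted separately in these shares. TATA boxes were in 8 of the 80 promoters and in 12.4% of all promoters. The left RE1 letters were in 2.5% against 5.73%, and the right RE1 letters in 18.8% against 18.7%. These windows do not cover RE1 elements elsewhere in a gene.

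Expression was tested with the quasi-likelihood test of edgeR over the 19041 genes that passed its filter on low counts, with Benjamini-Hochberg adjustment over all of them and 0.05 as the threshold. All 53 genes passed the filter, although *Celf6* did so through its *Eya1*cKO reads. At this threshold 18 of the 53 genes were lower in *Eya1*cKO, 5 were higher and 30 did not pass. Over all genes tested 4.41% were lower and 5.15% higher. Abundant genes passed more often. Among the 2617 genes with a mean of at least 100 CPM 18.6% were lower and 9.74% higher, beside 16 lower and 1 higher of the 29 splicing regulators at that level (this level was chosen after the values were seen). Both *Eya1*cKO libraries lay below both controls for 37 of the 53 genes and above them for 12, where 30.0% of all genes tested lay below and 25.3% above. The median log2 fold change of the 53 genes was -0.31, against 0.02 over all genes tested and -0.11 over the 2617 abundant ones. DESeq2 with its Wald test called 22 of the 53 genes lower and 7 higher, beside 6.8% and 8.57% of all genes tested. None of the 23 calls passed the adjusted threshold when either control library was left out, although all 23 kept their direction. The median log2 fold change of the 53 genes was -0.33 without control 1 and -0.34 without control 2, against 0.06 and 0.05 over all genes. Without *Eya1*cKO 1 it was -0.31 and without *Eya1*cKO 2 it was -0.34, against -0.16 and -0.11 over all genes.

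**Figure D1:**
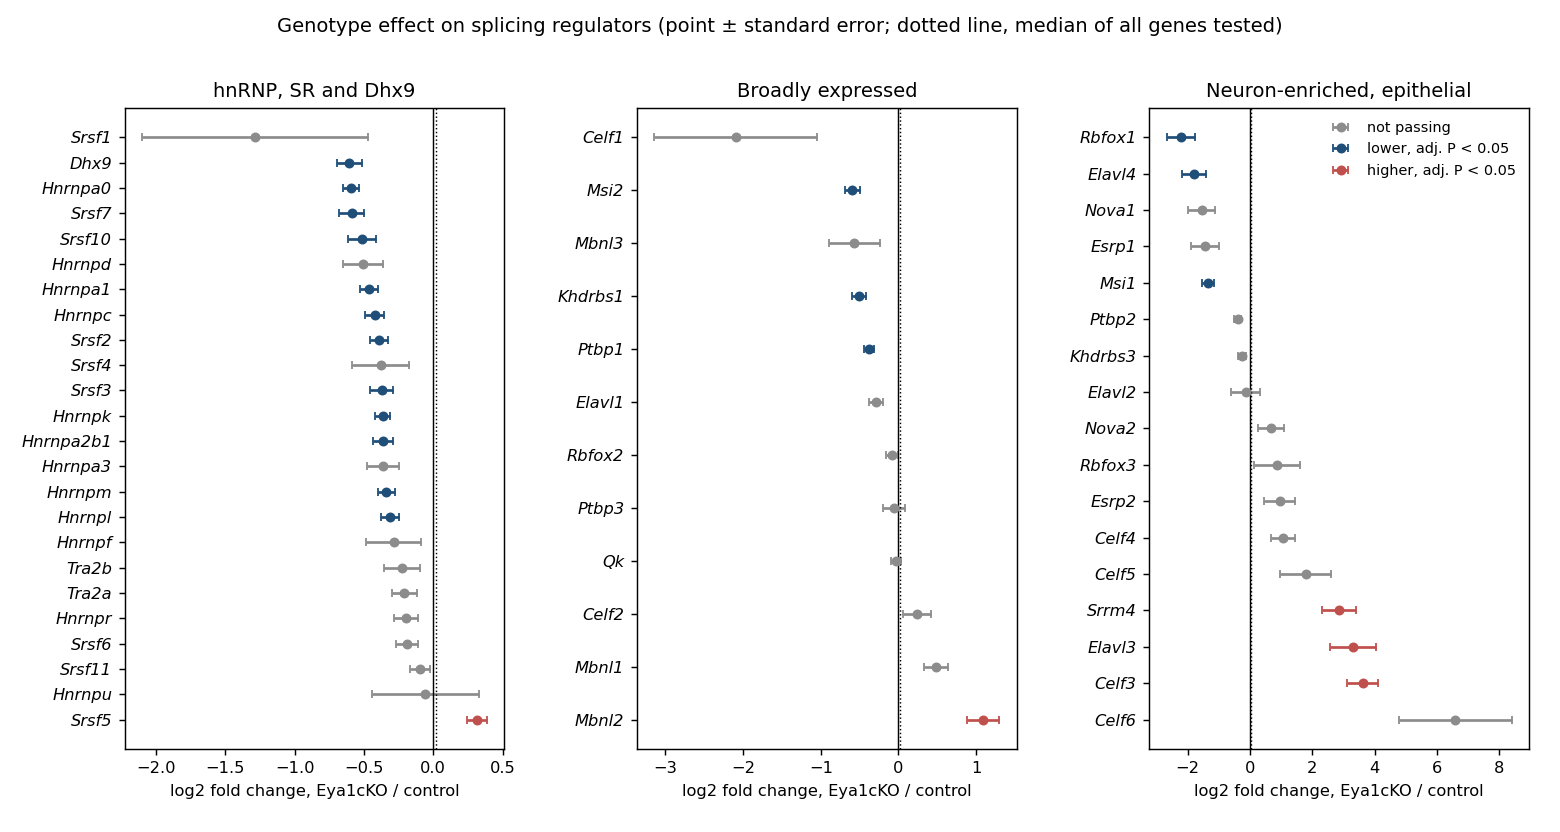
Log2 fold change of *Eya1*cKO over control for the 53 genes, in panels for hnRNP, SR and *Dhx9*, for broadly expressed regulators, and for neuron-enriched and epithelial regulators, with separate horizontal scales. Points are edgeR estimates, bars are standard errors (n = 2 libraries per genotype), blue and red mark genes lower (18) and higher (5) at an adjusted P under 0.05, and the dotted line is the median of all genes tested (0.02). The *Celf6* estimate rests on 2 reads in the controls.

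The hnRNP class held the 3 genes of highest level per exon length among the 53, and the hnRNP genes that passed were all lower in *Eya1*cKO. Of the 12 genes 7 were lower and 0 higher (edgeR, as above), all 12 estimates were negative, and the median log2 fold change was -0.36. Of these 12 genes 9 had at least 100 CPM, a level at which 18.6% of all genes were lower. At an unadjusted P under 0.05, 9 of the 12 were lower and 0 higher in edgeR, and 8 lower and 0 higher by the Wald test of DESeq2 at the adjusted threshold, where the shares lower among genes of at least 100 CPM were 34.0% and 23.7%. Levels of different genes were compared as TPM, in which counts are scaled for exon length and library total. On this scale *Hnrnpa0* (1344 TPM), *Hnrnpa1* (1023 TPM) and *Hnrnpa2b1* (947 TPM) held the first 3 places in the controls. By their means they held the same places in *Eya1*cKO, at 908, 756 and 750 TPM. In *Eya1*cKO 1, however, *Hnrnpa2b1* (808 TPM) was above *Hnrnpa1* (732 TPM).

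*Hnrnpa0*, an AU-rich element binding protein, had 946 and 943 CPM in the controls (33027 and 35297 reads) against 631 and 619.6 CPM in *Eya1*cKO (14265 and 10870 reads). Its *Eya1*cKO level was 66.2% of control, with the libraries of each genotype close together (log2 fold change -0.59 ± 0.06, adjusted P = 0.0022). *Hnrnpa1*, a splicing silencer that counteracts SR proteins, had 859 and 833 CPM in the controls (29982 and 31208 reads) against 591 and 635 CPM in *Eya1*cKO (13363 and 11131 reads), a log2 fold change of -0.47 ± 0.06 (adjusted P = 0.0077). *Hnrnpa2b1*, which binds RNA for splicing and transport, had 1652 and 1617 CPM in the controls (57690 and 60541 reads) against 1362 and 1176 CPM in *Eya1*cKO (30776 and 20637 reads), a log2 fold change of -0.36 ± 0.07 (adjusted P = 0.028). The calls of *Hnrnpa0* and *Hnrnpa1* passed in all 8 alternative analyses and that of *Hnrnpa2b1* in 7 of 8. In all 3 genes the groups did not overlap, and the *Eya1*cKO libraries of *Hnrnpa2b1* were further apart than its controls.

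*Hnrnpc*, which binds uridine tracts and shields cryptic splice sites of Alu elements in human cells, had 501 and 501 CPM in the controls (17511 and 18761 reads) against 368 and 379.5 CPM in *Eya1*cKO (8326 and 6658 reads), a log2 fold change of -0.42 ± 0.07 (adjusted P = 0.012). *Hnrnpk*, a poly(C)-binding protein, had 1103 and 1100 CPM in the controls (38532 and 41185 reads) against 843 and 869 CPM in *Eya1*cKO (19058 and 15247 reads), a log2 fold change of -0.36 ± 0.05 (adjusted P = 0.0099). Each pair of libraries agreed closely and the genotypes were well apart. *Hnrnpl*, which binds CA repeats, had 672 and 666 CPM in the controls (23473 and 24951 reads) against 553 and 522 CPM in *Eya1*cKO (12502 and 9155 reads), a log2 fold change of -0.31 ± 0.06 (adjusted P = 0.028). *Hnrnpm*, a partner of RBFOX proteins, had 737 and 752 CPM in the controls (25746 and 28173 reads) against 585 and 593 CPM in *Eya1*cKO (13219 and 10407 reads), a log2 fold change of -0.34 ± 0.06 (adjusted P = 0.017). Exons of *March2* on the same strand cover 14.7% of the *Hnrnpm* exons, and reads there cannot be assigned to either gene with certainty. The call of *Hnrnpl* passed in 7 of 8 alternatives, and those of *Hnrnpc*, *Hnrnpk* and *Hnrnpm* in all 8.

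The other 5 hnRNP genes did not pass, with log2 fold changes from -0.51 (*Hnrnpd*) to -0.06 (*Hnrnpu*). *Hnrnpd* had 576 and 586 CPM in the controls against 477 and 334 CPM in *Eya1*cKO, and its *Eya1*cKO libraries were further apart, relative to their level, than those of the genes above. It passed in 2 of 8 alternatives. *Hnrnpu*, usually an abundant gene, had 537 and 585 reads in the controls and 229 and 367 in *Eya1*cKO, and its groups overlapped. The hnRNP A genes have processed copies of near-identical sequence in the genome between which reads could have been split, so their levels are uncertain.

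Most SR factors that passed were lower as well, with *Srsf5* as the exception. Of 11 genes 4 were lower (*Srsf2*, *Srsf3*, *Srsf7* and *Srsf10*), 1 was higher (*Srsf5*) and 6 did not pass, and the median log2 fold change was -0.37. Of the 11 genes 9 had at least 100 CPM, where 18.6% of all genes were lower and 9.74% higher. *Srsf2*, a nuclear SR protein that activates exons and has roles in transcription elongation, had 503 and 497 CPM in the controls (17554 and 18594 reads) against 375 and 387 CPM in *Eya1*cKO (8477 and 6788 reads), a log2 fold change of -0.39 ± 0.07 (adjusted P = 0.016). Exons of *Mettl23* and *Mfsd11* on the opposite strand cover 25.3% of its exons. *Srsf3*, the smallest SR protein and a link between splicing and RNA export, had 445 and 432 CPM in the controls (15546 and 16176 reads) against 358 and 317 CPM in *Eya1*cKO (8097 and 5565 reads), a log2 fold change of -0.37 ± 0.08 (adjusted P = 0.036). The *Srsf2* call passed in 7 of 8 alternatives and the *Srsf3* call in 3 of 8.

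*Srsf7*, a zinc knuckle SR protein and export adaptor, had 322 and 299 CPM in the controls (11251 and 11197 reads) against 199 and 215 CPM in *Eya1*cKO (4499 and 3772 reads), a log2 fold change of -0.59 ± 0.09 (adjusted P = 0.011). It had the largest fall among the SR genes that passed, to 66.7% of control. *Srsf10*, which acts as a repressor when dephosphorylated, had 222 and 199.7 CPM in the controls (7752 and 7476 reads) against 151 and 145 CPM in *Eya1*cKO (3403 and 2536 reads), a log2 fold change of -0.51 ± 0.10 (adjusted P = 0.026). For both genes every *Eya1*cKO library lay below every control. The call of *Srsf7* passed in all 8 alternatives and that of *Srsf10* in 7 of 8.

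*Srsf5* had 450.4 and 429.5 CPM in the controls (15728 and 16083 reads) against 567 and 526 CPM in *Eya1*cKO (12823 and 9232 reads), so that each *Eya1*cKO library exceeded each control (log2 fold change 0.32 ± 0.07, adjusted P = 0.040). This gene, whose protein binds purine-rich exonic enhancers, rose from place 10 in the controls to place 5 in *Eya1*cKO among the 53 genes ordered by TPM. The rise was 1.24-fold in CPM, and the call passed in 4 of 8 alternatives. *Srsf6*, next to *Srsf2* in TPM among the SR genes, had 588 and 564 CPM in the controls (20521 and 21105 reads) against 535 and 473 CPM in *Eya1*cKO (12092 and 8301 reads), with a log2 fold change of -0.19 ± 0.08 that did not pass (adjusted P = 0.17). Of the others, *Srsf4*, *Srsf11*, *Tra2a* and *Tra2b* had log2 fold changes from -0.38 to -0.10. *Srsf1* stood at 83 and 80 reads in the controls and 29 and 8 in *Eya1*cKO, far below the other SR genes in all 4 libraries. *Srsf1*, *Hnrnpu* and *Celf1* were singled out after their values were seen, because their counts were low for genes that most cells express, and the cause was not tested.

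*Dhx9*, an RNA helicase that resolves double-stranded RNA and R-loops, had 713 and 706 CPM in the controls (24914 and 26442 reads) against 427 and 509 CPM in *Eya1*cKO (9648 and 8922 reads), a log2 fold change of -0.61 ± 0.09 (adjusted P = 0.0095). Both *Eya1*cKO libraries were lower than the controls, with the mean at 65.9% of control. The call passed in all 8 alternatives.

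**Figure D2:**
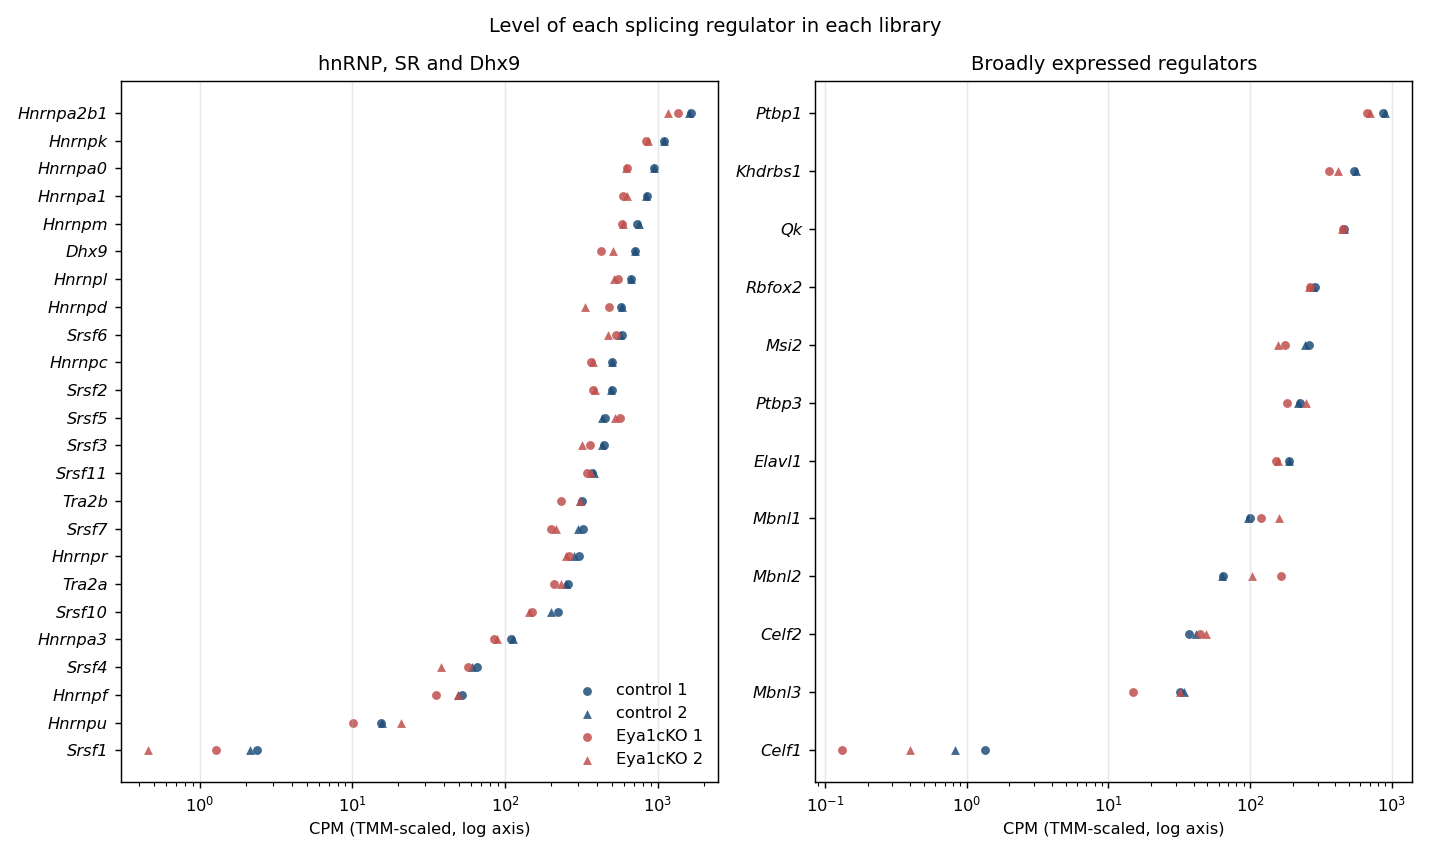
CPM on a log axis of the hnRNP and SR genes with *Dhx9* (left) and of the broadly expressed regulators (right), each symbol being 1 library (blue, control; red, *Eya1*cKO; circle, library 1; triangle, library 2). Most red symbols lie to the left of the blue ones, *Srsf5* (526 and 567 against 430 and 450 CPM), *Mbnl2*, *Mbnl1* and *Celf2* have both red symbols to the right, and *Srsf1* and *Celf1* stand apart at low levels.

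Nephron progenitor markers moved with the fall of the hnRNP and SR genes, from 1736 and 1745 CPM to 391 and 351 CPM in sum, and their part in it was not tested.

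Among the broadly expressed regulators *Ptbp1*, *Khdrbs1* and *Msi2* were lower, *Mbnl2* was higher and 8 of 12 did not pass. Of the 12 genes 8 had at least 100 CPM, the 3 lower genes among them, and *Mbnl2* was under that level. At that level 18.6% of all genes were lower and 9.74% higher, and over all genes tested these were 4.41% and 5.15%. *Ptbp1*, the polypyrimidine tract-binding protein that represses neuronal exons outside the nervous system, had 874 and 901 CPM in the controls (30528 and 33746 reads) against 668 and 699 CPM in *Eya1*cKO (15093 and 12263 reads), a log2 fold change of -0.38 ± 0.06 (adjusted P = 0.012). Exons of other genes on the opposite strand cover 20.7% of its exons. *Khdrbs1* (Sam68), a STAR-family protein that links signalling to splicing, had 543 and 555 CPM in the controls (18946 and 20797 reads) against 359 and 416 CPM in *Eya1*cKO (8112 and 7294 reads), a log2 fold change of -0.51 ± 0.08 (adjusted P = 0.015). *Msi2*, a Musashi protein that mainly controls translation, had 261 and 243 CPM in the controls (9127 and 9090 reads) against 176 and 156 CPM in *Eya1*cKO (3974 and 2745 reads), a log2 fold change of -0.60 ± 0.10 (adjusted P = 0.015). These genes showed no overlap between genotypes.

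*Mbnl2*, a Muscleblind protein that promotes the adult pattern of exons, had 64.7 and 63.6 CPM in the controls (2261 and 2382 reads) against 165 and 104 CPM in *Eya1*cKO (3721 and 1823 reads), a log2 fold change of 1.09 ± 0.21 (adjusted P = 0.024). Both *Eya1*cKO libraries lay above the controls but far from each other, and the log2 fold change ranged from 0.68 to 1.34 when 1 library was left out. The call passed in 4 of 8 alternatives. Its paralogue *Mbnl1* had 100 and 96.9 CPM in the controls against 120 and 159 CPM in *Eya1*cKO (log2 fold change 0.49 ± 0.15), which did not pass (adjusted P = 0.093) except by the Wald test of DESeq2 among the 8 alternatives. It also passed when either *Eya1*cKO library was left out. The third paralogue, *Mbnl3*, had 32.2 and 34.4 CPM against 14.8 and 32 CPM and did not pass (adjusted P = 0.30). Summed over the family, MBNL genes had 55.2 and 54.9 TPM in the controls and 85.2 and 80.6 TPM in *Eya1*cKO.

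*Rbfox2*, the main RBFOX gene outside neurons, had 287 and 277 CPM in the controls (10014 and 10354 reads) against 267 and 263 CPM in *Eya1*cKO (6030 and 4608 reads), a log2 fold change of -0.09 ± 0.08 that did not pass (adjusted P = 0.50). Of the other genes, *Ptbp3*, *Celf2*, *Elavl1* and *Qk* had log2 fold changes from -0.29 to 0.24 and did not pass. *Qk* (Quaking) had 462 and 460 CPM in the controls against 457 and 445 CPM in *Eya1*cKO. *Celf1* was counted with only 47 and 31 reads in the controls and 3 and 7 in *Eya1*cKO, too few for a reliable fold change.

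The neuron-enriched regulators were lower and higher in equal number. Of 15 genes, *Rbfox1*, *Elavl4* and *Msi1* were lower in *Eya1*cKO, *Srrm4*, *Celf3* and *Elavl3* were higher, and 9 did not pass. Over all genes tested 4.41% were lower and 5.15% higher, and 2 of the 15 genes had at least 100 CPM. Both *Eya1*cKO libraries lay below the controls for 6 genes, above for 7, and overlapped them for 2, beside 30.0% of all genes tested below and 25.3% above. In the controls the 3 lower genes had 14.7 to 109 TPM and the 3 higher genes 0.53 to 1.33 TPM. In *Eya1*cKO the mean levels of *Rbfox1* (4.13 TPM) and *Elavl4* (4.28 TPM) were below those of *Elavl3* (5.23 TPM), *Srrm4* (6.30 TPM) and *Celf3* (16.2 TPM). *Msi1* (42.9 TPM) stayed above them. For *Elavl3* this order held in *Eya1*cKO 1 only. In *Eya1*cKO 2 it had 3.39 TPM, below *Rbfox1* (5.47 TPM) and *Elavl4* (4.01 TPM). The neuronal and sympathoadrenal markers were higher in 11 of 15 cases (summed 33.0 and 37.1 CPM in the controls, 638 and 683 CPM in *Eya1*cKO), with *Chga*, *Th* and *Dbh* among them and none at 0 reads, and *Stmn2*, *Snap25*, *Prph* and *Syt1* did not pass. Of the 5 Schwann and neural crest markers 3 could be tested and *Sox10* was higher. Their part in the results for these 15 genes was not tested.

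**Figure D3:**
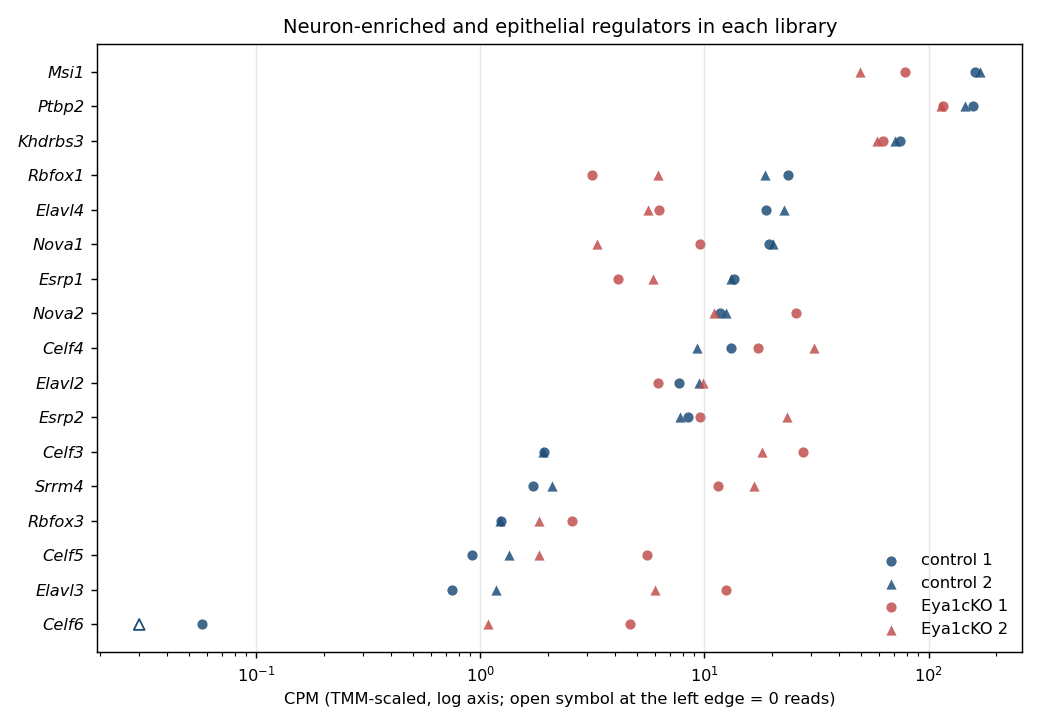
CPM on a log axis of the 15 neuron-enriched and 2 epithelial regulators in each library (blue, control; red, *Eya1*cKO; circle, library 1; triangle, library 2; open symbol at the left edge, 0 reads). *Rbfox1*, *Elavl4* and *Msi1* have both red symbols to the left of the blue ones, and *Celf3*, *Srrm4* and *Elavl3* have both to the right, in *Celf3* from 1.92 and 1.90 CPM to 27.6 and 18.1 CPM.

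*Srrm4* (ENSMUSG00000063919, chromosome 5, 116439275 to 116591817 in GRCm38), whose promoter is printed above, had 1.72 and 2.08 CPM in the controls (60 and 78 reads) against 11.6 and 16.6 CPM in *Eya1*cKO (261 and 291 reads). This was a 7.40-fold higher mean in *Eya1*cKO, with every library of a genotype on its own side (log2 fold change 2.85 ± 0.54, adjusted P = 0.022). The call passed in 7 of 8 alternatives. *Celf3*, a neuronal CELF protein, had 1.92 and 1.9 CPM in the controls (67 and 71 reads) against 27.6 and 18.1 CPM in *Eya1*cKO (623 and 318 reads). Its mean was 12-fold higher (log2 fold change 3.61 ± 0.49, adjusted P = 0.0075), and the call passed in all 8 alternatives. *Elavl3* (HuC), an RNA-stabilising protein of neurons, had 0.745 and 1.18 CPM in the controls (26 and 44 reads) against 12.5 and 6.04 CPM in *Eya1*cKO (282 and 106 reads), a log2 fold change of 3.31 ± 0.73 (adjusted P = 0.036). The *Eya1*cKO libraries of *Elavl3* differed from each other by more than those of *Srrm4*, and its call passed in 4 of 8 alternatives. Without *Eya1*cKO 1 its log2 fold change was 2.63.

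*Rbfox1*, which binds GCAUG and promotes neuronal and muscle exons, had 23.7 and 18.5 CPM in the controls (826 and 694 reads) against 3.14 and 6.21 CPM in *Eya1*cKO (71 and 109 reads). The mean in *Eya1*cKO was 22.2% of control (log2 fold change -2.23 ± 0.45, adjusted P = 0.028), and the call passed in 5 of 8 alternatives. *Elavl4* (HuD), a close relative of *Elavl3*, had 18.8 and 22.7 CPM in the controls (658 and 849 reads) against 6.28 and 5.59 CPM in *Eya1*cKO (142 and 98 reads), a log2 fold change of -1.80 ± 0.38 (adjusted P = 0.032), and passed in 6 of 8. *Msi1* (Musashi 1), a translational regulator of neural and other progenitors, had 162 and 170.4 CPM in the controls (5650 and 6381 reads) against 78.4 and 49.4 CPM in *Eya1*cKO (1771 and 867 reads), a log2 fold change of -1.35 ± 0.18 (adjusted P = 0.0075). It passed in all 8 alternatives, and its mean fell to 38.5% of control. In these 3 genes the 2 genotypes did not overlap.

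The other 9 neuron-enriched genes did not pass, although *Nova1* and *Ptbp2* did in 2 of 8 alternatives (the Wald test and at least 10 counts in every library) and *Celf6* in 1 (the Wald test, adjusted P = 0.0026). *Nova1* and *Ptbp2* also passed when either *Eya1*cKO library was left out, *Celf4* without *Eya1*cKO 1, and *Celf5*, *Celf6* and *Nova2* without *Eya1*cKO 2. *Nova1*, a regulator of synaptic transcripts that binds YCAY, had 19.5 and 20.2 CPM in the controls (681 and 756 reads) against 9.51 and 3.31 CPM in *Eya1*cKO (215 and 58 reads). The estimate of -1.55 ± 0.44 on the log2 scale fell short of the threshold (adjusted P = 0.075), and the 2 *Eya1*cKO libraries were far apart, with estimates of -2.60 without *Eya1*cKO 1 and -1.08 without *Eya1*cKO 2. *Nova2* had 11.7 and 12.4 CPM in the controls (410 and 465 reads) against 25.5 and 11.1 CPM in *Eya1*cKO (576 and 194 reads), high in only 1 *Eya1*cKO library (log2 fold change 0.66 ± 0.42, adjusted P = 0.34), and its direction turned without that library. A long noncoding RNA on the opposite strand covers 31.7% of the *Nova2* exons. *Ptbp2* (nPTB), the neuronal counterpart of *Ptbp1*, had 158 and 146 CPM in the controls (5515 and 5453 reads) against 116 and 114 CPM in *Eya1*cKO (2629 and 2001 reads). Its log2 fold change was -0.40 ± 0.11 (adjusted P = 0.064), without overlap between the genotypes.

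*Celf4* had 13.1 and 9.29 CPM in the controls (458 and 348 reads) against 17.3 and 30.8 CPM in *Eya1*cKO (390 and 540 reads), a log2 fold change of 1.06 ± 0.39 (adjusted P = 0.13). *Celf5* had 0.916 and 1.34 CPM in the controls (32 and 50 reads) against 5.53 and 1.82 CPM in *Eya1*cKO (125 and 32 reads), a log2 fold change of 1.78 ± 0.81 (adjusted P = 0.20). For each of these genes the *Eya1*cKO values exceeded the control values, and neither passed. The *Celf5* estimate was 0.67 without *Eya1*cKO 1 and 2.27 without *Eya1*cKO 2. *Celf6* had 2 and 0 reads in the controls and 105 and 19 in *Eya1*cKO. Scaled for library size, the ratio of the summed reads was 112, with an exact 95% interval of 30.3 to 933 that covers counting error only. The *Eya1*cKO libraries were far apart at 4.65 and 1.08 CPM, and *Celf6* did not pass (adjusted P = 0.077).

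*Elavl2* (HuB) had 7.73 and 9.45 CPM in the controls (270 and 354 reads) against 6.2 and 9.86 CPM in *Eya1*cKO (140 and 173 reads), which overlapped (log2 fold change -0.14 ± 0.46, adjusted P = 0.87). *Rbfox3*, which encodes the antigen NeuN, had 1.23 and 1.23 CPM in the controls (43 and 46 reads) against 2.57 and 1.82 CPM in *Eya1*cKO (58 and 32 reads), a log2 fold change of 0.86 ± 0.73 (adjusted P = 0.47). Its counts were near the low end of the 53 genes in both genotypes. *Khdrbs3* (SLM2), a relative of *Khdrbs1*, had 74.3 and 71.1 CPM in the controls (2595 and 2662 reads) against 62.4 and 59 CPM in *Eya1*cKO (1409 and 1035 reads), a log2 fold change of -0.26 ± 0.14 (adjusted P = 0.27).

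The epithelial regulators, which promote epithelial exons such as that of the *Fgfr2* IIIb form, did not pass in the analysis of all 4 libraries. *Esrp1* had 13.6 and 13.1 CPM in the controls (474 and 492 reads) against 4.12 and 5.87 CPM in *Eya1*cKO (93 and 103 reads), a log2 fold change of -1.45 ± 0.44 (adjusted P = 0.089), again without overlap, and it was called lower by the Wald test of DESeq2 among the 8 alternatives and also when either *Eya1*cKO library was left out. *Esrp2* had 8.42 and 7.77 CPM in the controls (294 and 291 reads) against 9.56 and 23.3 CPM in *Eya1*cKO (216 and 408 reads), a log2 fold change of 0.95 ± 0.49 (adjusted P = 0.25), and it was higher mainly in *Eya1*cKO 2, with estimates of 1.51 without *Eya1*cKO 1, where it passed, and 0.23 without *Eya1*cKO 2. The 9 epithelial and ureteric bud markers summed to 250 and 272 CPM in the controls against 199 and 192 CPM in *Eya1*cKO, with only *Cldn3* passing, lower. Their part in these values was not tested. Among skeletal muscle markers, which bear on the RBFOX, CELF and MBNL genes, 4 of 8 could be tested. Of these *Des* was lower and 3 did not pass. Of those not tested, *Myf5* was at 0 reads in every library, and *Myod1* had 5 and 0 reads in the controls and 0 in *Eya1*cKO. *Myog* had 0 and 2 reads in the controls against 65 and 0 in *Eya1*cKO, and *Myf6* had 0 and 0 against 0 and 30.

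Within several families the shares of the paralogues in the summed TPM, which is scaled for exon length, differed between the genotypes. These shares were described without a test and were set up after the values of single genes were seen. In the ELAVL family *Elavl1* held 76.8% to 80.1% in the controls and 79.7% to 83.1% in *Eya1*cKO. *Elavl4* had 15.4% and 17.7% in the controls and 6.36% and 5.65% in *Eya1*cKO, and *Elavl3* had 0.474% and 0.716% against 9.87% and 4.78%. So the order of *Elavl3* and *Elavl4* was reversed in *Eya1*cKO 1 and not in *Eya1*cKO 2. In the CELF family the total was 13.8 and 12.7 TPM in the controls and 42.6 and 36.4 TPM in *Eya1*cKO, and the share of *Celf3* was 9.69% and 10.4% against 46.2% and 35.2%. *Rbfox1* had 13.2% and 11% of the RBFOX total in the controls and 2.10% and 4.15% in *Eya1*cKO.

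In the NOVA pair *Nova1* held 61.4% and 60.9% in the controls and 26.3% and 22.2% in *Eya1*cKO. In the ESRP pair *Esrp1* held 52.6% and 53.8%, against 22.9% and 14.8%. The NOVA total was 13.9 and 14.4 TPM in the controls and 16.1 and 6.58 TPM in *Eya1*cKO, and the level of *Nova2* was no higher in *Eya1*cKO 2 (5.11 TPM) than in the controls (5.36 and 5.65 TPM). The ESRP total was 15.6 and 14.8 TPM, against 11.2 and 24.3 TPM. None of these 4 genes passed. In the Musashi pair, where both genes passed as lower, *Msi1* held 52.6% and 55.7% in the controls and 44.4% and 36.2% in *Eya1*cKO, so that *Msi2* held the larger share there. The Musashi total was 202 and 201 TPM in the controls and 119 and 91.2 TPM in *Eya1*cKO. In the PTB family the shares of *Ptbp1* (79.6% and 80.8% against 79.1% and 76.4%) and *Ptbp2* (7.43% and 6.74% against 7.12% and 6.44%) were close in both genotypes.

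**Figure D4:**
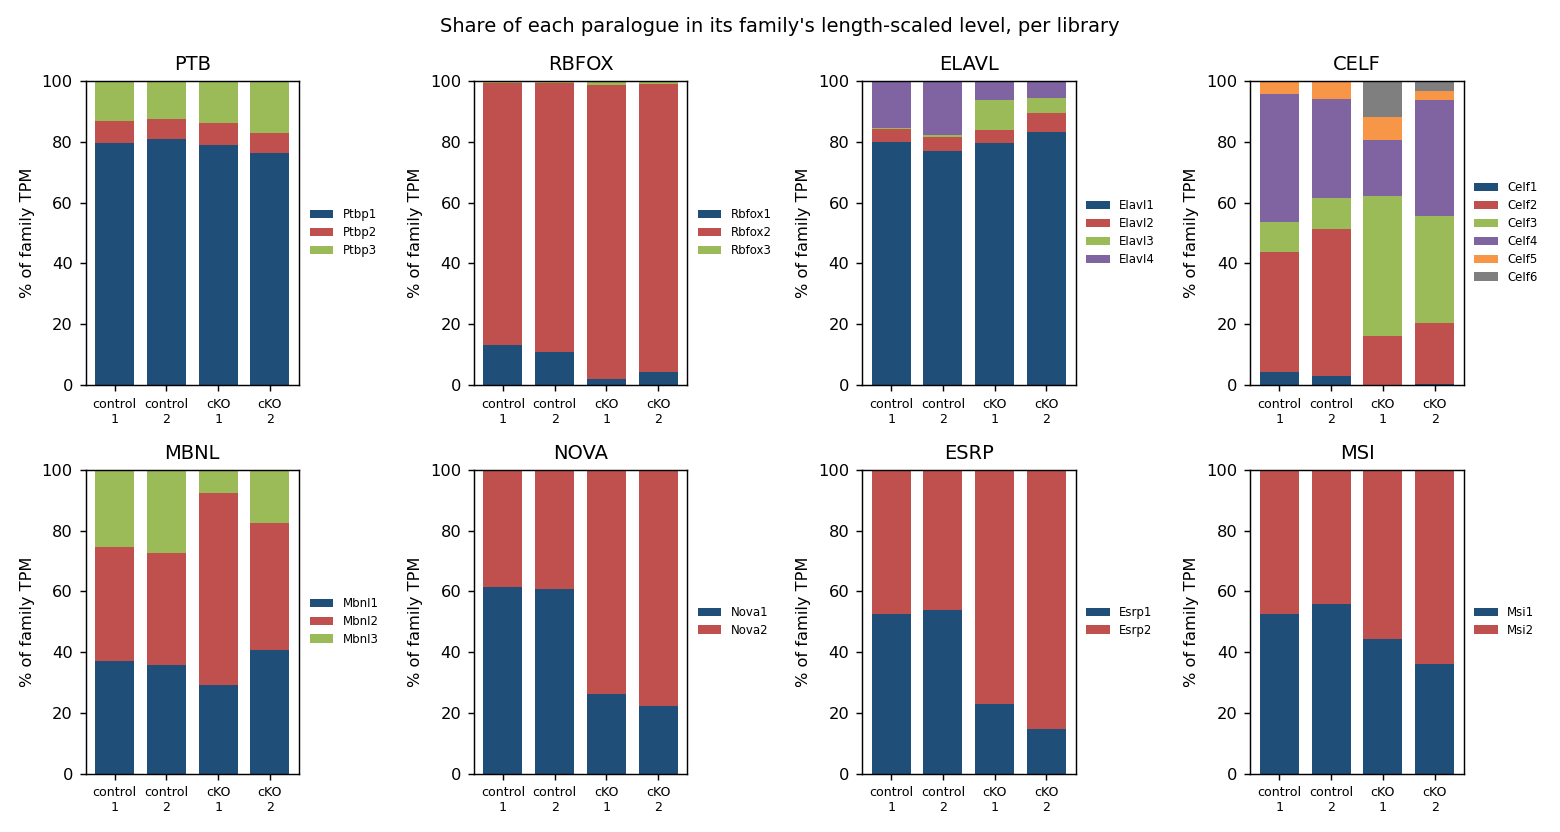
Share (%) of each paralogue in the summed TPM of its family, 1 bar per library (control 1, control 2, *Eya1*cKO 1 and *Eya1*cKO 2, written cKO), for 8 families. The CELF panel shows *Celf3* at 9.69% and 10.4% in the controls and 46.2% and 35.2% in *Eya1*cKO. The NOVA, ESRP and MSI panels show a different major paralogue in each genotype, and the PTB panel shows little change in *Ptbp1* and *Ptbp2*.

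Lists of other splicing genes were read beside the shares given above, 4.41% lower over all genes tested and 18.6% lower over genes of at least 100 CPM. Of 36 genes of the core spliceosome 35 could be tested, of which 12 were lower and 0 higher, and all 35 estimates were negative (median log2 fold change -0.39, against -0.11 over the abundant genes), and 22 of the 36 were at that level. The largest falls that passed were those of *Eftud2*, a GTPase of the U5 particle (log2 fold change -0.85), and *Snrpe*, a Sm ring protein (log2 fold change -0.81). *Sf1*, the branch point-binding factor, had 0 reads in all 4 libraries and was not tested. Most cells express this gene, so the 0 does not show that it was silent, and its cause was not tested. Of 25 other hnRNP, SR-related and FET genes 11 were lower and 0 higher (median -0.33), with 21 of the 25 at that level. *Tardbp* (log2 fold change -0.64) and *Syncrip* (-0.60) had the largest falls that passed.

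Among 9 kinases that phosphorylate SR proteins 1 was lower (*Dyrk1a*, log2 fold change -0.42) and 0 were higher. Of 14 genes of nonsense-mediated decay and the exon junction complex 1 was lower (*Casc3*, log2 fold change -0.58) and 0 were higher, with a median of -0.31. Of the kinases 5 had at least 100 CPM, and of the decay genes 10. Of 4 nuclear-retained RNAs 0 passed in either direction. The counts called in these lists depended on the rule. At an unadjusted P under 0.05 in edgeR, 21 genes of the core spliceosome, 16 of the other hnRNP list, 3 kinases and 6 decay genes were lower, and 0, 0, 2 and 0 were higher, where 34.0% of the genes of at least 100 CPM were lower and 16.2% higher. By the Wald test of DESeq2 at the adjusted threshold 17, 13, 1 and 5 were lower, and 0, 0, 1 (*Clk1*) and 0 were higher, where the shares were 23.7% and 13%. Of the nuclear-retained RNAs 2 were higher and 0 lower at an unadjusted P under 0.05, and 0 passed the Wald test.

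**Figure D5:**
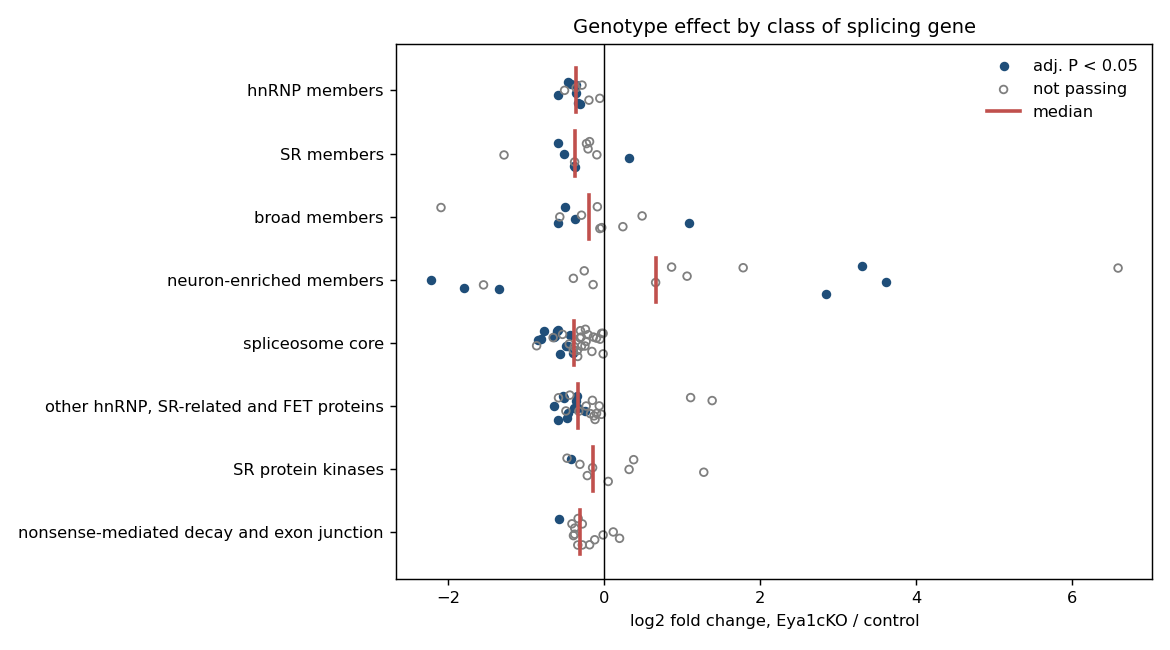
Log2 fold change of *Eya1*cKO over control for single genes of 4 classes of the 53 regulators and of 4 other lists of the splicing machinery. Filled blue points passed at an adjusted P under 0.05, open points did not, and red bars are medians, which lie at -0.36 for the hnRNP class, -0.37 for the SR class and -0.39 for the core spliceosome. The neuron-enriched genes are spread to both sides, and their median of 0.66 fell to 0.18 without *Eya1*cKO 1 and to 0.25 where *Celf6* did not pass the filter.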

How the data were processed

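The authors prepared 2 control and 2 *Eya1*cKO RNA-seq libraries from 5000 sorted tdTomato+ cells each, using purified mRNA, random priming and a strand-specific kit. The reads were mapped by the authors to mm10 with HISAT2 and counted with HTSeq on the genes of Ensembl release 90, and the deposited values are these raw counts. The strand setting and any removal of duplicates are not given in the sources used here. The labels and the methods of the study differ in the number of kidneys and females. Of 52636 identifiers 52403 were paired with a symbol and an exonic length in GENCODE M21, a later annotation than that of the counting but of the same build. Exons of 24 of the 53 genes overlap another gene there, 20 on the opposite strand. More than 10% is covered in *Srsf4*, *Nova2*, *Hnrnpf*, *Srsf2*, *Ptbp1* and *Hnrnpm*, whose counts are uncertain.

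Counts were tested in R 4.3.3 with edgeR 4.0.16 (filterByExpr with a minimum count of 10, TMM, glmQLFit with legacy = FALSE, glmQLFTest and Benjamini-Hochberg adjustment at 0.05), after the procedure was tested on simulated data. The standard error of a log2 fold change was taken as its size divided by the square root of the F statistic. TPM were computed from counts per kilobase of exons. Alternatives used DESeq2 1.42.0, other scaling, filters and dispersion estimates, thinned counts, the library number as a block, and leaving out each library. The groups are those of the genotype labels. Values in every library are given for the genes that passed, for all neuron-enriched and epithelial genes, and for the 3 genes of highest control TPM in each other class, and of each pathway list the 2 largest changes that passed in each direction are named. The 53 genes and all lists were chosen with earlier results of these data known. Intervals and limits cover counting error only and leave out variation between libraries. The reads carry no molecular identifiers, so copies of 1 molecule could be counted more than once.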

Additional observations from a re-analysis of the deposited data

Results flagged for a closer look

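Reads that were counted on no gene and reads that were not aligned lie outside the comparison and took larger shares in the *Eya1*cKO libraries than in the controls. Reads on no gene were 22.7% and 20.9% of the reads recorded in *Eya1*cKO 1 and *Eya1*cKO 2, against 13.9% and 12.9% in control 1 and control 2. Reads not aligned were 12.9% and 12.7%, against 6.32% and 6.69%. Groups of 2 libraries are too small for a test for outlying samples.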

How the results depend on the processing

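The 23 genes that passed kept their direction under all 8 alternatives and in all 4 analyses that left out 1 library. All 23 also passed with DESeq2 size factors, with at least 10 counts required in every library and with the Wald test of DESeq2. *Srsf3* was lost with library totals alone. *Elavl3*, *Mbnl2*, *Srsf3* and *Srsf5* were lost with control counts thinned to the depth of *Eya1*cKO, with *Hnrnpa2b1* and *Rbfox1* in addition under the legacy quasi-likelihood method, and with *Elavl4* and *Rbfox1* in addition without a filter on low counts. Higher genes among the 53 then numbered 2 with thinned counts, 2 with the legacy method and 2 without the filter, against 5. Over all genes, lower and higher genes numbered 1294 and 1808 with the Wald test, 515 and 581 with the legacy method and 507 and 548 without the filter, and 601 were higher with thinned counts, against 839 and 981. The Wald test and the analysis without a filter took in all genes with at least 1 read, and the median log2 fold change was then -0.18 and -0.21.

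Control and *Eya1*cKO libraries share the numbers 1 and 2 in the labels, but nothing in the labels says that a number marks a shared animal, and the deviations of same-numbered libraries from their group means correlated at 0.0062, so the numbers were not taken as pairs. With the replicate block 13 of the 23 genes passed, 1 of them higher (*Celf3*), and 263 genes were lower and 358 higher overall. The 10 genes lost were *Elavl3*, *Elavl4*, *Hnrnpl*, *Mbnl2*, *Rbfox1*, *Srrm4*, *Srsf10*, *Srsf2*, *Srsf3* and *Srsf5*.

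When 1 library was left out, the genotype with 1 library was assumed to vary like the other. Of the 53 genes 0 to 31 were then lower and 0 to 9 higher, and of all genes 7 to 3482 were lower and 15 to 4443 higher, the low ends being without control 1 or control 2 and the high ends without *Eya1*cKO 1 or *Eya1*cKO 2. The difference between these ends follows from which pair of libraries is left to estimate the spread. The log2 fold change of *Elavl2* ranged from -0.49 without *Eya1*cKO 2 to 0.18 without *Eya1*cKO 1, and that of *Nova2* from 1.06 to -0.14, and neither passed in any analysis except *Nova2* without *Eya1*cKO 2. Of the 10 genes of highest control TPM 7 were also among the 10 of highest CPM. Counts of a few reads in *Celf1*, *Celf6*, *Srsf1* and *Rbfox3* limit what can be said of these genes.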
